A study of Mus musculus with 26 samples.

Results

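Lysine 27 of histone H3 (H3K27) can carry acetyl or methyl groups, and the RNA of 10 mouse genes that add or remove them was followed in cultured embryonic stem (ES) cells on their way to spinal motor neurons. The genes were chosen by name from a table of 37450 gene IDs, and each of the 10 had 1 row there. They are the acetyltransferases Ep300 and Crebbp, the Polycomb repressive complex 2 (PRC2) core genes Ezh1, Ezh2, Eed and Suz12, the demethylases Kdm6a and Kdm6b, and the deacetylases Hdac1 and Hdac2.

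Acetylation of H3K27 marks active enhancers and promoters, and methylation of the same residue by PRC2 marks genes that Polycomb proteins keep silent. A lysine cannot carry both groups at once, so the enzymes that place and remove them act on the same target. Ezh1 and Ezh2 are alternative catalytic subunits of PRC2, Eed binds the methylated product, and Suz12 holds the complex together. Kdm6a and Kdm6b remove the methyl groups, and Hdac1 and Hdac2 are the catalytic subunits of several corepressor complexes.

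The RNA was total RNA depleted of ribosomal RNA, with 1 library on each of days 0, 4, 5 and 6. Per the labels, the day 0 library came from ES cells of the HBG3 line with no additions. The day 4 library came from motor neuron progenitors of the same line, which on day 2 had received retinoic acid at 1 uM and the Hedgehog pathway agonist SAG at 0.25 uM. The libraries of days 5 and 6 came from spinal motor neurons of the iCre line, given the same 2 agents and also the gamma-secretase inhibitor DAPT, which keeps Notch from being cleaved, at 5 uM on day 4 (and again on day 5 for the day 6 sample). The labels call these neurons postmitotic, and their cell type field reads Ainv15 throughout, so the line of each library is given here as its growth field has it. Between days 4 and 5 the labelled line changes together with the day, and the 2 cannot be told apart. Set beside the RNA were maps of p300, the protein made by Ep300, from iCre cells of days 5 and 6 (1 library each), and of acetylated H3K27 (H3K27ac) from days 4 (2 libraries), 5 and 6. The growth field gives iCre for all of these libraries, while the name of 1 of the 2 day 4 peak lists holds HBG3. All had received retinoic acid and SAG as above, and those of days 5 and 6 also DAPT at 5 uM.

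Values are FPKM, in which fragment numbers are divided by gene length and library size, so levels of different genes can be set side by side. With 1 library per day there is no replicate and no test. A difference is that of log2(FPKM + 1), which understates the change of low genes, and genes that reached 2-fold are called higher or lower. A gene counted as measured in a step if 1 of its 2 libraries had at least 1 FPKM, which held for between 11164 and 12073 genes. The libraries held the markers of their labelled stages. The 4 ES cell markers, among them Nanog, summed to 458 FPKM on day 0 and to 0.554 or less later. The 5 progenitor markers, such as Olig2, summed to 246 on day 4, 43.5 on day 5, when all 5 were at 1 FPKM or more, and 10.1 on day 6. The 4 motor neuron markers, such as Isl1, summed to 10.3 on day 4, 157 on day 5 and 156 on day 6. From day 5 to day 6 Lhx3 (24.1 to 3.90) and Mnx1 (36.5 to 22.0) fell, while Isl1 (88.0 to 116) and Chat (8.02 to 13.2) rose. The 4 neuron markers that could be used summed to 31.7, 19.5, 441 and 1184 FPKM on days 0, 4, 5 and 6. Stmn2 made 28.0 of the day 0 sum, and stood at 3.59 on day 4. Lists for other cell types were low, with glial markers summing to between 4.93 and 12.6 FPKM (mostly Mbp on days 5 and 6), fibroblast markers to between 0.824 and 5.65, and endothelium and blood markers to 15.2 on day 0 and 0.783 or less later. Among the glial markers Slc1a3 stood at 6.65 on day 4, and Gfap, Aqp4 and Sox10 were below 0.2 on all days. The fibroblast marker Dcn rose from 0.113 on day 5 to 4.40 on day 6. Endoderm and epithelium markers summed to 106 FPKM on day 0, of which Epcam made 91.0, and to 5.43 or less later. In such bulk RNA, fewer cells of a type and less RNA per cell cannot be told apart.

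Short sequences at the starts of 2 PRC2 genes are shown because E2F factors, which drive genes of DNA replication, are known to bind sequences of this kind, and PRC2 genes are described below beside cell cycle genes. The motif searched on both strands was TTTCCCGC, TTTCGCGC, TTTGCCGC or TTTGGCGC, picked after the promoters had been seen. RefSeq promoter sequences (build GRCm38.p6, 250 bases before to 50 after a start) were found for 8 of the 10 genes, and 2 of the 8 held a match, in capitals here with 11 bases on either side. The share of all 32851 such promoters with a match was 2.26%. Because the motif was picked with the promoters in view, the 2 of 8 cannot be read as an enrichment over this share.
Ezh2: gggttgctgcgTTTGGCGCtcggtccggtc
Suz12: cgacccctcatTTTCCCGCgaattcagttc

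The Ezh2 match begins at base 4 after the annotated start, and the whole stretch shown lies at chr6:47595009-47595038 on the minus strand. The Suz12 match begins at position −219 from the start, and the whole stretch shown lies at chr11:79992876-79992905 on the plus strand. These letters were not in the windows of Ep300, Crebbp, Ezh1, Eed, Kdm6a and Hdac2. A match describes the sequence and does not show that a factor is bound.

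The core PRC2 genes other than Ezh2 were far lower in neurons than in ES cells. From day 0 to day 4, 3 of the 10 genes (Ezh1, Eed and Suz12) were at least 2-fold lower, against 11.9% of all measured genes, and 2 of the 10 (Crebbp and Kdm6b) were at least 2-fold higher, against 19.3%. The median difference was −1.30 on the log2 scale over the 4 PRC2 core genes, 0.08 over the 10 genes and 0.23 over all genes. Rescaling, which sets the median ratio between libraries to 1, lowered all day 4 values by 0.17 on the log2 scale against day 0, and left the same 5 genes called, while the shares of all genes became 13.7% lower and 15.2% higher.

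Suz12 had 84.7, 20.7, 12.3 and 8.65 FPKM on days 0, 4, 5 and 6. It was the most abundant of the 10 in ES cells, above 96.5% of the genes at 1 FPKM or more, and on day 6 it was above 60.1%. The difference was −1.98 from day 0 to day 4, and −0.71 and −0.46 in the later steps, which were within 2-fold.

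Eed stood at 50.7, 18.2, 6.25 and 3.73 FPKM on days 0, 4, 5 and 6. It was the only one of the 10 to be called in both of the first steps, with −1.43 from day 0 to day 4 and −1.41 from day 4 to day 5, the step that holds the change of line. From day 0 to day 6 its FPKM was 13.6-fold lower and that of Suz12 9.79-fold lower.

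Ezh2 followed another course. Its FPKM was 22.6 in ES cells, 35.5 in progenitors, then 25.0 and 15.4 in neurons, with step differences of 0.63, −0.49 and −0.67 that were each within 2-fold. The highest value was in progenitors and the lowest on day 6, a span of 1.15 on the log2 scale that is past 2-fold over both steps together. On day 6 Ezh2 was still the second most abundant of the 10 genes.

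Ezh1, known as the form more typical of nondividing tissues, was highest in ES cells here. It stood at 9.36, 3.57, 2.61 and 2.52 FPKM, a difference of −1.18 from day 0 to day 4 and of −0.34 and −0.04 after that. Its share of the summed Ezh1 and Ezh2 FPKM was 29.3% on day 0, 9.15% on day 4, 9.46% on day 5 and 14.1% on day 6. Ezh2 was thus the more abundant of the pair on all 4 days, by 2.41-fold on day 0 and 6.10-fold on day 6, and the share of Ezh1 was higher on day 6 than on day 4 although its own FPKM was lower.

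**Figure D1:**
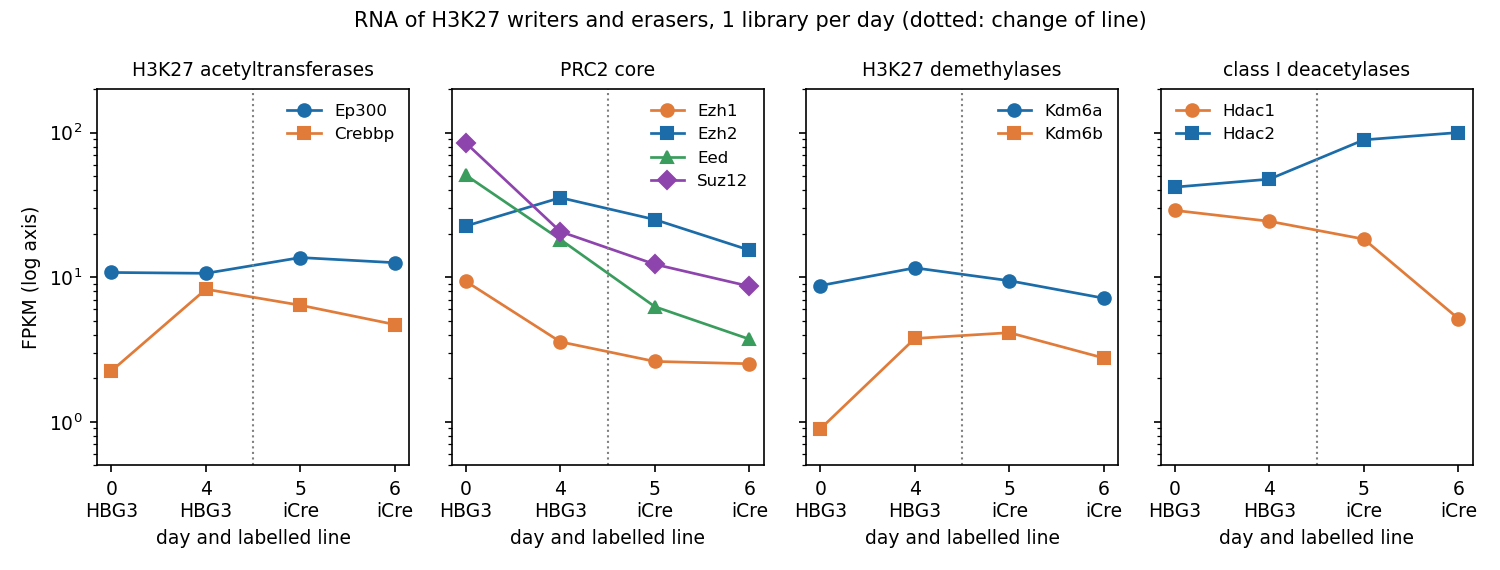
FPKM (log axis) of the 10 genes in the 4 RNA libraries, 1 point per library, in panels by role, with days evenly spaced and the change of labelled line dotted. Suz12 and Eed go from 84.7 and 50.7 on day 0 to 8.65 and 3.73 on day 6, Ezh2 stays between 15.4 and 35.5, and Hdac1 and Hdac2 part between days 4 and 6.

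Ratios within 1 library do not depend on how libraries are scaled against each other. In ES cells Suz12 had 3.75 times and Eed 2.25 times the FPKM of Ezh2. On day 4 the order was turned, with ratios of 0.583 and 0.513, and it stayed so on day 5 (0.491 and 0.250) and day 6 (0.562 and 0.242). Ezh2 went from the third PRC2 core gene by level in ES cells to the first from day 4 on.

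The accessory subunits, many of which help direct PRC2 to its sites, went in more than 1 direction after day 4. Of 7 measured genes (9 listed, with Phf19 below 1 FPKM on all days), 3 were lower on day 4 and none higher, led by Jarid2 (63.1 to 6.52 FPKM, −3.09) and Mtf2 (108.7 to 25.5, −2.05). The list median was −0.93, or −1.09 after rescaling, with 4 lower. Over all genes 11.9% were lower in this step, or 13.7% after rescaling. From day 4 to day 5, 2 were lower, E130012A19Rik (now Epop; 16.6 to 4.77, −1.61) and the histone-binding Rbbp7 (77.3 to 30.9, −1.29), and Jarid2 was higher (14.9, 1.08). Over all genes 14.7% were lower and 11.5% higher in that step. None of the 7 was called from day 5 to day 6. From day 0 to day 6, 5 of the 7 were lower, against 23.7% of all genes, with E130012A19Rik lowest (44.1 to 2.41, −3.73). Relative to Ezh2, Jarid2 went from 2.80 on day 0 to 0.184 on day 4 and back to 0.805 on day 6, and Mtf2 from 4.81 to 0.719 and 2.18, whereas E130012A19Rik went from 1.95 to 0.467 and 0.157.

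**Figure D2:**
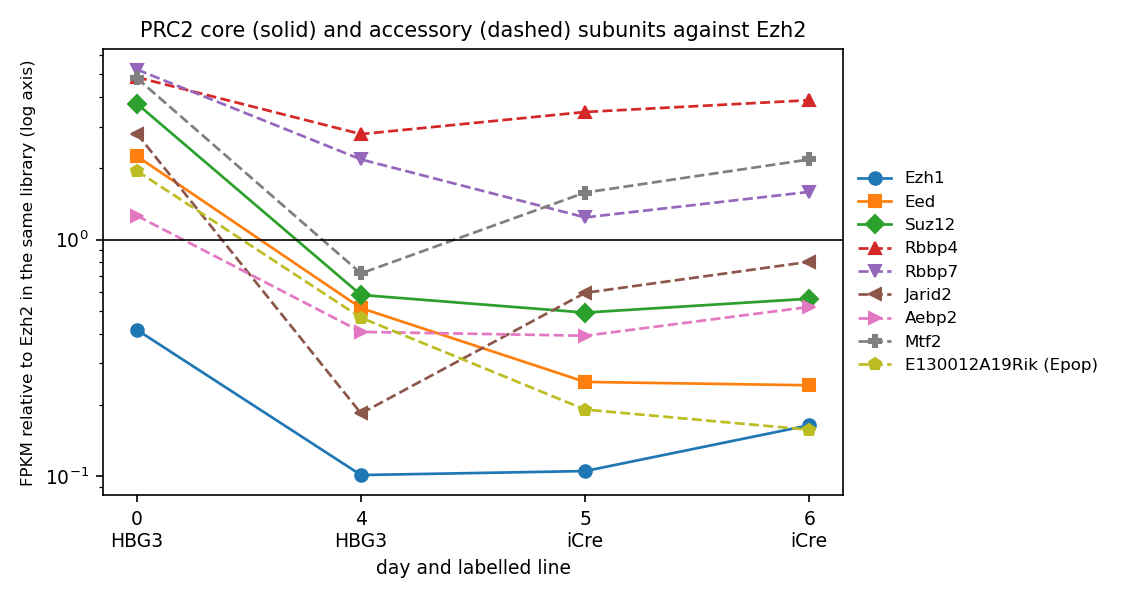
FPKM of PRC2 core (solid) and accessory (dashed) genes divided by that of Ezh2 in the same library (log axis), by day, 1 point per library, with the line at equal levels. Of the genes drawn, all but Ezh1 lie above Ezh2 on day 0, and on day 4 only Rbbp4 (2.79) and Rbbp7 (2.18) still do, with Mtf2 above it again on days 5 and 6.

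The genes of PRC1, a group of Polycomb complexes that ubiquitinate histone H2A and of which only some bind methylated H3K27, went both ways. Of 19 measured genes, 6 were higher and 3 lower on day 4, against 19.3% and 11.9% of all genes. The list median was 0.29, against 0.23 over all genes. The largest differences upward were those of Bmi1 (1.04 to 14.7 FPKM) and Ring1 (1.44 to 12.5), and downward those of the chromobox gene Cbx7 (29.3 to 4.54) and Phc1 (29.8 to 6.24). In the next step 3 were lower, or 2 after rescaling, led by Pcgf2 (8.24 to 2.14) and Ring1 (12.5 to 4.02), against 14.7% of all genes. None of 18 was called from day 5 to day 6.

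The cell cycle list gives a scale for these values. Its 18 genes had a median difference of 0.15 from day 0 to day 4, with 2 higher and none lower, and after rescaling the median was −0.02 with 1 higher. From day 4 to day 5, 16 were lower (median −2.22) and from day 5 to day 6, 17 (median −2.06). Their summed FPKM was 1044, 1108, 234 and 45.8 on days 0, 4, 5 and 6. Suz12, Eed and Ezh1 had differences past 2-fold in the step in which no cell cycle gene was lower. In the later steps, in which most were, Ezh2 differed by −0.49 and −0.67, or 1.15 lower on the log2 scale from day 4 to day 6. Eed differed by −1.41 and −0.62 in those same steps, Suz12 by −0.71 and −0.46, and Ezh1 by −0.34 and −0.04. What part the exit from the cell cycle has in the PRC2 values was not tested.

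The 2 acetyltransferases differed in course. Ep300 stood at 10.8, 10.6, 13.7 and 12.6 FPKM on days 0, 4, 5 and 6, a span of 0.33 on the log2 scale, the smallest of the 10 genes. Over the 12618 genes at 1 FPKM or more in some library the median span was 1.29. The step differences of Ep300 were −0.02, 0.33 and −0.11, and after rescaling the last was 0.04.

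Crebbp, which encodes the close relative CBP, went from 2.25 FPKM in ES cells to 8.25 on day 4, a difference of 1.51. It then stood at 6.40 on day 5 and 4.702 on day 6 (−0.32 and −0.38, within 2-fold). The FPKM of Ep300 was 4.80 times that of Crebbp in ES cells, 1.29 times on day 4, 2.14 times on day 5 and 2.68 times on day 6, so the pair was nearest to equal in progenitors.

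Among 8 other lysine acetyltransferases none was higher in any step as deposited. On day 4, 4 were lower (median −0.42), led by Myst4 (now Kat6b; 26.0 to 2.50 FPKM) and Kat2b (14.4 to 3.29). From day 4 to day 5, 2 were lower, Hat1, which acetylates new histone H4 (62.2 to 12.3), and Kat2a (11.3 to 3.27), and Hat1 was lower again on day 6 (3.86). After rescaling 1 gene of the list was higher from day 4 to day 5. Over all genes the shares lower were 11.9% by day 4, 14.7% by day 5 and 6.19% by day 6, each against the day before in the series.

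Of the demethylases 1 was called in 1 of the 3 steps. Kdm6a, an X-linked gene, stood at 8.75, 11.6, 9.45 and 7.15 FPKM, within 2-fold in all steps (0.37, −0.27 and −0.36). Kdm6b had 0.894, 3.77, 4.13 and 2.76 FPKM on days 0, 4, 5 and 6, a difference of 1.33 in the first step and of 0.11 and −0.45 later. It was measured in that step only by reaching 1 FPKM on day 4. Kdm6a was the more abundant of the pair on all 4 days, by 9.78-fold in ES cells and by between 2.29-fold and 3.08-fold afterwards.

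Uty, the Y-linked relative of Kdm6a, stood at 8.02, 4.20, 1.55 and 1.33 FPKM. It was lower from day 4 to day 5 (−1.03), but within 2-fold after rescaling, and lower from day 0 to day 6. The other Y-linked genes did not all follow, with Ddx3y at 5.17, 2.41, 1.06 and 0.968 FPKM, lower from day 0 to day 6, and Eif2s3y at 8.11, 4.41, 4.97 and 4.79. Xist was at 0.126 FPKM or less on all days.

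KDM6A protein works in complexes with the H3K4 methyltransferases MLL3 and MLL4. Of 9 measured genes of these complexes, 1 was lower on day 4, Ash2l (81.2 to 27.8 FPKM), or 2 after rescaling. By day 5, 1 was higher, Mll3 (now Kmt2c; 5.01 to 13.3), and 2 were lower, Dpy30 (33.8 to 14.7) and Paxip1 (7.60 to 3.14), the latter within 2-fold after rescaling. None was called from day 5 to day 6. Over all genes 11.9% were lower from day 0 to day 4. From day 4 to day 5, 11.5% were higher and 14.7% lower.

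The paralogues Hdac1 and Hdac2 moved apart. Hdac1 stood at 29.0, 24.3, 18.3 and 5.17 FPKM on days 0, 4, 5 and 6. Its difference of −1.65 from day 5 to day 6 made it the only one of the 10 called in the step within the iCre line, 1 of 10 against 6.19% of all genes lower. None of the 10 was higher in that step, against 6.57% of all genes, or 8.38% after rescaling, which left 4.94% lower. In the same step all 5 progenitor markers were lower, or 3 after rescaling, and 17 of the 18 cell cycle genes, and their part in the Hdac1 value was not tested.

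Hdac2 stood at 41.9, 47.6, 89.0 and 100.005 FPKM. It was the most abundant of the 10 from day 4 on, above 97.7% of genes at 1 FPKM or more on day 6. The difference from day 4 to day 5 was 0.89, within 2-fold, and 1.03 after rescaling, which made it a call. In that step 1 of the 10, Eed, was lower against 14.7% of all genes, and none was higher as deposited against 11.5%. After rescaling these background shares were 11.6% and 13.1%.

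Within each library, Hdac2 had 1.45 times the FPKM of Hdac1 on day 0, 1.96 times on day 4, 4.86 times on day 5 and 19.4 times on day 6. Hdac1 made up 40.8% of the summed FPKM of the pair in ES cells and 4.91% on day 6. The sum itself was 70.9, 72.0, 107 and 105 FPKM, so the pair's total was higher on days 5 and 6 than on days 0 and 4.

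Hdac1 has a copy annotated as a pseudogene, Gm10093 (Hdac1-ps, on chromosome 17), to which reads could be assigned in its place. The sequences were not compared. Copies were sought by this form of name only, so unnamed copies of the other genes would be missed. The copy stood at 0.107, 0.122, 2.87 and 0.571 FPKM. With the copy added, Hdac1 stood at 29.1, 24.5, 21.2 and 5.74 FPKM, and the difference from day 5 to day 6 was −1.72.

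The other deacetylases had no lower call. Of 8 measured, 2 were higher on day 4, Hdac7 (0.230 to 1.97 FPKM) and Hdac3 (7.54 to 17.5), the latter within 2-fold after rescaling. Over all genes 19.3% were higher in this step. None of the listed deacetylases was called in the next 2 steps as deposited, and rescaling gave 1 higher gene in each. From day 0 to day 6, 4 of 7 were higher, led by Hdac9 (0.278 to 3.43) and Hdac11 (1.69 to 7.78), against 26.1% of all genes.

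Among 17 measured genes of the CoREST, Sin3 and NuRD complexes, in which Hdac1 and Hdac2 work, 4 were higher and 2 lower on day 4, or 3 and 2 after rescaling. Over all genes 19.3% were higher and 11.9% lower. The list median was 0.26 against 0.23, so in this step the list stood near all genes. In the list, the higher genes were led by Mta1 (5.93 to 31.1 FPKM) and the remodeller gene Chd3 (2.39 to 9.42). The lower ones were Sin3a (39.1 to 15.9) and Mta3 (10.1 to 4.43). From day 4 to day 5 Chd3 was higher (60.7) and Mta1 (11.3) and Sap18 (41.9 to 17.5) were lower. Over all genes 11.5% were higher and 14.7% lower in that step. From day 5 to day 6, 3 were lower, led by Rcor2 (43.6 to 16.9) and Chd3 (24.9), against 6.19% of all genes.

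**Figure D3:**
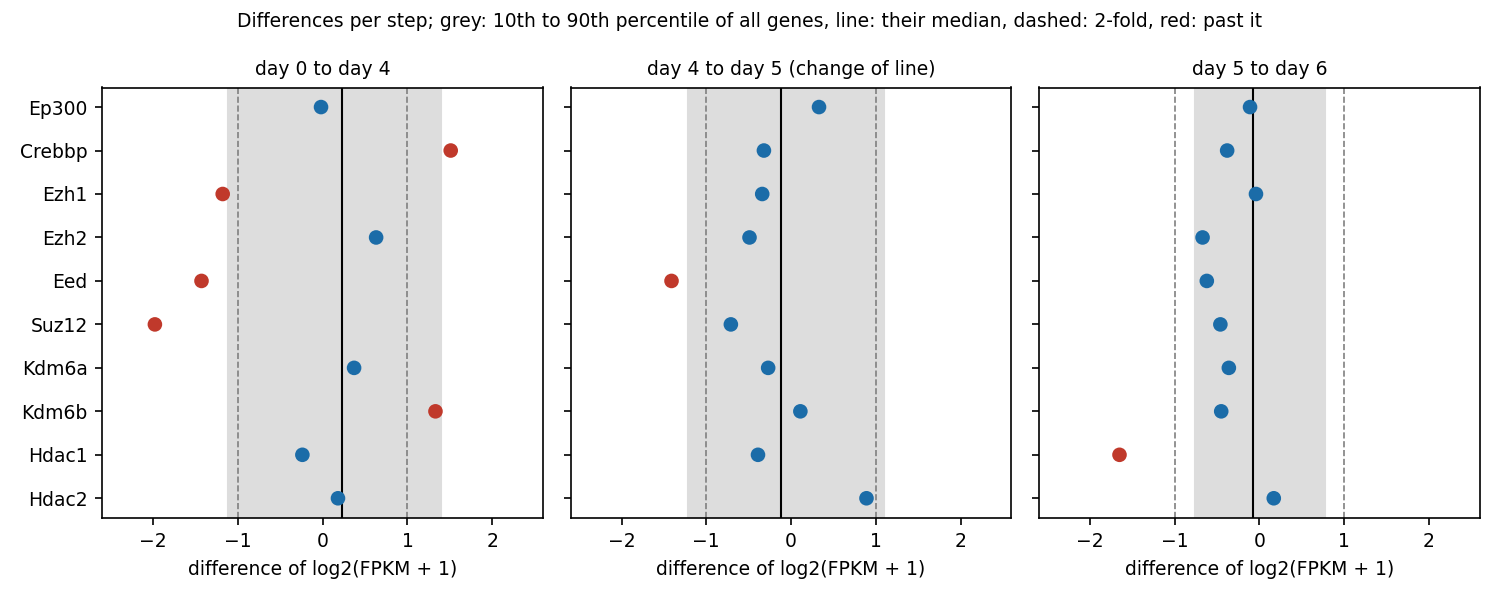
Difference of log2(FPKM + 1) for each gene, later minus earlier library, in the 3 steps, with the 10th to 90th percentile of all measured genes in grey, their median as a line, 2-fold dashed and genes past it in red. The calls are 5 in the first step, Eed (−1.41) in the step with the change of line, and Hdac1 (−1.65) in the last.

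Across the whole course from day 0 to day 6, 4 of the 10 genes were lower (Eed −3.45, Suz12 −3.15, Hdac1 −2.28 and Ezh1 −1.56), against 23.7% of all genes. One, Hdac2, was higher (1.23), against 26.1%. Kdm6b (0.99) and Crebbp (0.81) lay below the threshold as deposited, and Kdm6b was past it after rescaling (1.09). This comparison also holds the change of line. Of the 10 genes 8 spanned 2-fold or more over the 4 libraries, as did 66.3% of the 12618 genes.

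Genes with the most similar course were found as those with the smallest distance between log2(FPKM + 1) profiles over the 4 libraries, each centred on its own mean. With 4 points such a likeness is a description only. The added 1 FPKM understates the change of low genes, so a low gene can lie near one with a much smaller fold change. Nearest to Crebbp was Arid1a, a subunit of the BAF remodelling complex (4.60, 15.0, 11.9 and 8.86 FPKM, distance 0.01). Mfsd2a, at only 0.239 FPKM on day 0 and 2.64 on day 4, and Qser1 followed. Nearest to Ezh2 were Rps6, a ribosomal protein gene (230.2, 351.8, 249.0 and 162.1 FPKM, distance 0.04), Tra2a and Cdc26, and to Kdm6b Phtf1 (distance 0.02), Ikzf5 and 2310067B10Rik.

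Nearest to Eed were Gart and Pfas, both enzymes of purine synthesis (Gart at 107.7, 33.6, 12.1 and 8.05 FPKM, distance 0.18; Pfas 0.22), and Acp6. Nearest to Suz12 were the translation initiation factor gene Eif2s2 (238.3, 60.2, 37.6 and 23.6 FPKM, distance 0.14), Zc3hav1 and Pml. Nearest to Ezh1 were Ttpa (distance 0.05), Cpox and Htatip2. From day 0 to day 6 Ttpa went from 2.14 to 0.0576 FPKM and Htatip2 from 1.84 to 0.0216. These are far larger fold changes than that of Ezh1 (9.36 to 2.52), to which Cpox (10.7 to 3.23) was closer. Nearest to Hdac1 were Wwtr1 (0.24), Psmd7 and Cbx1, and to Hdac2 1110028C15Rik (0.05), Dock11 and Vps33a. Zc3hav1, Pml and Wwtr1 were also below 1 FPKM on day 6. Among the 10 genes themselves, Crebbp and Kdm6b were each other's nearest (distance 0.33), as were Eed and Suz12 (0.65). Nearest to Ezh2 among the 10 was the demethylase gene Kdm6a (0.37), not another PRC2 gene. No nearest gene was sought for Ep300 and Kdm6a, which did not span 2-fold.

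The p300 maps allow the RNA of Ep300 to be set beside the protein's binding. The event list of day 5 held 19398 events and that of day 6 held 1337, a ratio of 14.5. Ep300 RNA had 13.7 and 12.6 FPKM on the same days, a ratio of 1.09, and Crebbp RNA at 6.40 and 4.702, a ratio of 1.36. The difference in event number was thus not matched by one in the RNA. How many reads each p300 library held is not stated, and the part of depth in the event numbers was not tested.

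By the authors' values, events of day 6 held fewer reads and had lower q-value scores, while their fold over the control was close to that of day 5. The median event held 55.0 precipitated reads on day 5 (10.0 to 2283) and 26.8 on day 6 (11 to 147). The median of the control reads at the events was also lower, 8.50 on day 5 and 4.20 on day 6. The median fold over the control was 6.70 and 6.10. The median −log10 q was 7.75 on day 5 and 2.65 on day 6, near the lowest value listed (2.00 and 2.01). At a −log10 q of at least 5, 13176 events remained on day 5 and 90 on day 6, whereas at 5-fold or more over the control 13663 (70.4%) and 905 (67.7%) remained.

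Of the 1337 events of day 6, 459 had a day 5 event within 100 bp (34.3%, exact 95% binomial interval 31.8 to 36.9, which covers counting error only). Within 500 bp the share was 44.4%, and among the 90 strongest, at −log10 q of 5 or more, it was 66.7% (55.9 to 76.3). Seen from day 5, 473 of 19398 events (2.44%) had a day 6 event within 100 bp. These 473 had a median of 67.0 precipitated reads on day 5, against 54.3 for the other 18925.

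H3K27ac, the mark that p300 and CBP place, gave more peaks on the day with fewer p300 events. Its peaks numbered 30641 and 24353 in the 2 libraries of day 4, 24525 on day 5 and 47275 on day 6, with covered lengths of 17.8, 16.2, 11.5 and 29.8 Mb. The depth of these libraries is not given, and its part in the peak numbers and covered lengths was not tested. Of the p300 events of day 5, 30.4% lay inside an H3K27ac peak of day 5, and of those of day 6, 36.6% (34.0 to 39.2) inside one of day 6. Of the day 6 events 7.55% lay inside an H3K27ac peak of day 5 and between 8.68% and 9.20% inside one of day 4, against 53.8% of day 5 events inside a peak of day 6 and between 40.0% and 41.5% inside one of day 4. The covered length differs between the lists, so these shares give no order between days. The H3K27ac libraries of days 5 and 6 and both p300 libraries have no replicate.

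**Figure D4:**
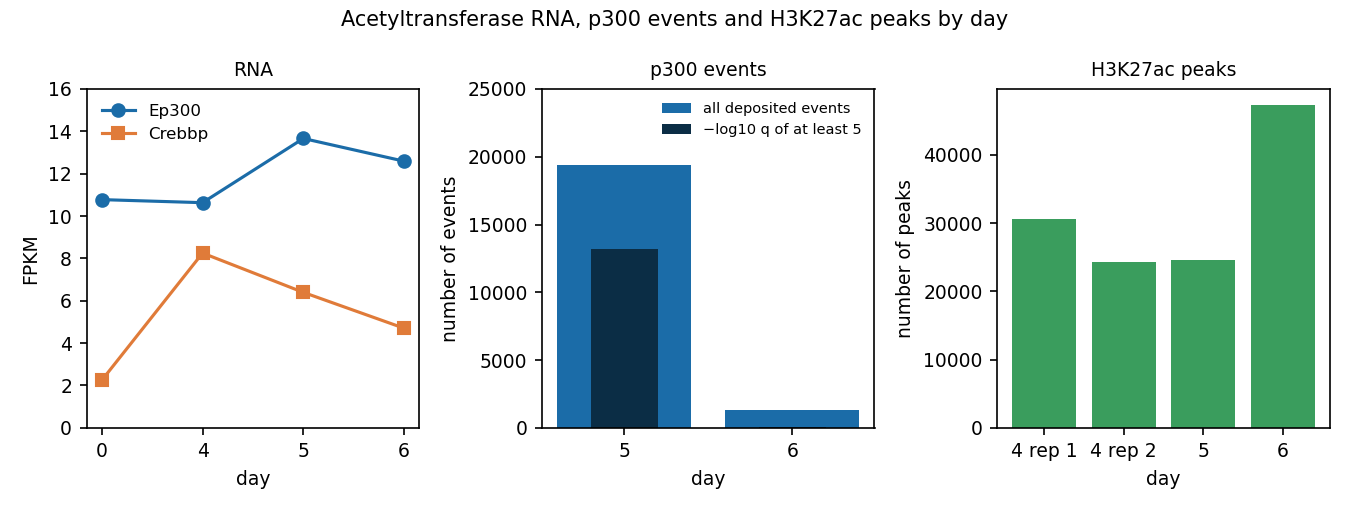
FPKM of Ep300 and Crebbp by day (left), number of p300 events on days 5 and 6 with those at −log10 q of at least 5 as narrow bars (middle), and number of H3K27ac peaks per library (right), 1 library per point or bar. Ep300 RNA stands at 13.7 and 12.6 on days 5 and 6 while the events number 19398 and 1337 and the H3K27ac peaks 24525 and 47275.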

How the data were processed

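RNA of 4 days was deposited by the authors as FPKM per gene, and which program made it is not stated. Per the submitters' processing notes, the build was mm9 and the tools were STAR, MACS, HOMER 4.7.2 and Bowtie 0.12.7, without their roles. Per the file headers, the p300 lists give each event's precipitated and control signal, the fold ratio between them and a −log10 q-value, all made by the authors. The deposited H3K27ac peaks carry a score per peak, which was not used. The depth of the libraries is not given: among genes below 0.05 FPKM, the commonest ratio between neighbouring days, taken as the relative worth of 1 read, was 0.500 for day 0 over day 4 (11.1% of 574 genes), 1.06 for day 4 over day 5 (20.5% of 512) and 1.33 for day 5 over day 6 (26.6% of 624). A ratio of 0.500 could also come from genes with different read numbers at equal depth, so it does not settle the relative depth of days 0 and 4.

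Python 3.11.15 with pandas 2.3.3 and scipy 1.17.1 was used. The calling of differences was run on simulated data, in which changes well past 2-fold were put into well expressed genes without noise. That run checks the code only, and does not cover changes near 2-fold, low genes or the spread between libraries. Genes were taken by symbol or, where the table uses it, an older symbol. Of the listed genes, Ezhip and Hdac4 had more than 1 entry and Map2 none under its symbol, and these were left out. Rescaling set the median log2 ratio of 3892 genes at 5 FPKM or more in all libraries to 0. Besides the 10 genes, from each list at most 2 higher and 2 lower genes per step were named, those past 2-fold with the largest differences. A nearest gene is given with its distance over 4 libraries, 3 per gene spanning 2-fold. The genes and lists were chosen with earlier results of these data known. In RefSeq (GRCm38.p6), Ep300, Ezh2 and Kdm6b each overlap 1 other gene (Gm22067, F830010H11Rik and Gm51903), none of which is named in the RNA table. Peaks at the genes' own start sites were planned but not analysed here, as no start sites on mm9 were at hand. One further list of related genes is not reported here.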

Additional observations from a re-analysis of the deposited data

How the results depend on the processing

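Over the 4 comparisons, no called gene of the 10 lost its call or changed direction with a pseudocount of 0.1 FPKM or rescaling. Leaving out the filter could change no call, since a gene below 1 FPKM in both libraries cannot reach 2-fold with 1 added. The number of higher genes from day 0 to day 4 was 1 in place of 2 with a minimum of 5 FPKM, since Kdm6b was then not measured. From day 4 to day 5 the number of higher genes was 1 in place of 0 after rescaling (Hdac2) and 1 at a 1.5-fold threshold, and that of lower genes 2 at 1.5-fold. From day 5 to day 6, 3 were lower at 1.5-fold. From day 0 to day 6, 3 were higher with a pseudocount of 0.1 (Crebbp at 1.03 and Kdm6b at 1.52 joined Hdac2) or at 1.5-fold, and 2 after rescaling. Over all genes, a pseudocount of 0.1 gave 1127 higher and 1077 lower from day 5 to day 6, in place of 734 and 691, and a minimum of 5 FPKM 474 and 454. That minimum gave 858 lower on day 4 in place of 1366. The 1.5-fold threshold gave 3951 higher and 2293 lower from day 0 to day 4, 2421 and 3205 from day 4 to day 5, and 1591 and 1786 from day 5 to day 6. Adding 1 FPKM to both genes of a pair of paralogues cannot change their order, so it was no check of that order. It changed the ratios, with Hdac2 over Hdac1 on day 6 at 16.4 in place of 19.4. Adding Gm10093 to Hdac1, chosen after seeing the data, changed no call. The p300 events of day 6 numbered 90 at a −log10 q of at least 5, and the share of day 6 events near a day 5 event was 44.4% within 500 bp and 66.7% among those 90. Whether depth set these event numbers was not tested. With 1 RNA library per day no library could be left out.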
